A study of Mus musculus with 6 samples.

Results

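The mitochondrial respiratory chain subunits encoded in the nucleus were described in cultured neural stem cells of the embryonic mouse, taken from 2 places in the brain. They were taken as the genes whose single-gene probe sets carry symbols of the Nduf, Sdh, Uqcr and Cox4 to Cox8 series, each gene standing by its probe set with the highest mean over all 6 arrays. This gave 63 genes, read by 74 probe sets, of 19938 genes in all. All arrays were labelled wild type, female, C57BL/6 and embryonic day 17.5, and the labels name no treatment in either group. Cells of the subventricular zone were taken beside the lateral ventricle (3 arrays, called lateral 1 to 3) or beside the third ventricle (3 arrays, called TVZ 1 to 3 after the labels' short names) and grown as cultures in low-attachment dishes with FGF and EGF at 20 ng/ml each. The labels call the arrays biological replicates 1 to 3 of each region. The cultures were sought from 3 independent females, but the labels do not tie an array to one. A p-value here thus reflects only how these cultures varied, and the labels do not show whether that is variation between animals.

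The respiratory chain passes electrons from NADH and succinate to oxygen in the inner mitochondrial membrane. Complex I oxidizes NADH, complex II oxidizes succinate, complex III carries electrons from ubiquinol to cytochrome c, and complex IV reduces oxygen. Complexes I, III and IV pump protons, and ATP synthase uses the resulting gradient. Most subunits are encoded in the nucleus, and the few made in the mitochondrion itself belong to other genes than those chosen here. Neural stem cells are known to rely much on glycolysis and to raise oxidative metabolism as they form neurons.

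Values are log2 expression after RMA, so a difference of 1 is a 2-fold change, and a higher signal of one gene than of another does not show more transcript, because probe sets differ in brightness. Lateral array 2 stood apart from its group. Over all genes its r was 0.991 with each array of the third ventricle, and 0.98 and 0.982 with lateral arrays 1 and 3. Over the 63 subunit genes the pattern recurred, with 0.997 against 0.989 and 0.986. The labels place it with the lateral cultures, and the files do not show whether it is one. Every lateral mean below includes it unless stated, and the medians of the set, its modules and the other lists are also given without it where they moved by over 1.5 times. As a gauge of background, the 95th percentile of 1027 olfactory receptor genes lay between 5.03 and 5.16 in the 6 arrays. Of the 63 genes, 59 lay above it in all 6 arrays, as did all 7 stem and progenitor markers measured, among them Sox2, Nes, Vim and Fabp7.

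Most respiratory chain genes read slightly higher in TVZ cultures, and none differed enough to pass the test over all genes. Of the 63 genes, 50 had a positive difference (TVZ minus lateral) and 13 a negative one, and the median difference was 0.083 on the log2 scale, against -0.018 over all genes. The positive share was 79.4%, against 45.4% of all genes. In RNA of whole cultures, fewer cells of a type and less RNA per cell cannot be told apart. In limma with Benjamini-Hochberg adjustment over the 19938 genes, 0 of the 63 passed an adjusted p of 0.05, where 0.231% of all genes did (0.145% as higher and 0.0853% as lower in cultures of the third ventricle). The lowest adjusted p of a subunit gene was 0.353. At an unadjusted p below 0.05 there were 7, all higher in the TVZ cultures (Sdha, Ndufb2, Ndufb6, Ndufb8, Cox7a2, Uqcrc1 and Ndufa11). These 7 are 11.1% of the genes, against 6.21% of all genes in that direction, and 0 genes were lower, against 6.43%.

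The separation of the groups was one-sided. In 18 of the 63 genes all 3 TVZ arrays lay above all 3 lateral ones, which is 28.6%, against 7.77% of all genes and 10.1% of the 11963 genes left without the dimmest 40%. The reverse order held in 2 genes, Ndufa7 and Uqcrc2, against 9.24% of all genes. After a further quantile normalization or cyclic loess between the arrays, the 18 became 14 in each case, against 8.36% and 8.96% of all genes, and the 50 positive differences became 43 and 41, against 48.4% and 49.8% of all genes. The median difference was then 0.048 and 0.055.

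The differences were also narrowly bounded. For 60 of the 63 genes the 95% interval lay wholly within 1.5-fold either way, against 82.2% of all genes and 75.7% without the dimmest 40%. The exceptions were Ndufv3 (-0.22 to 0.61), Cox7a2l (-0.64 to 0.04) and Cox6a2 (-1.49 to 0.39). Replicates lay close together, with a median SD of 0.11 over lateral and 0.066 over TVZ arrays, against 0.15 and 0.10 over all genes.

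**Figure D1:**
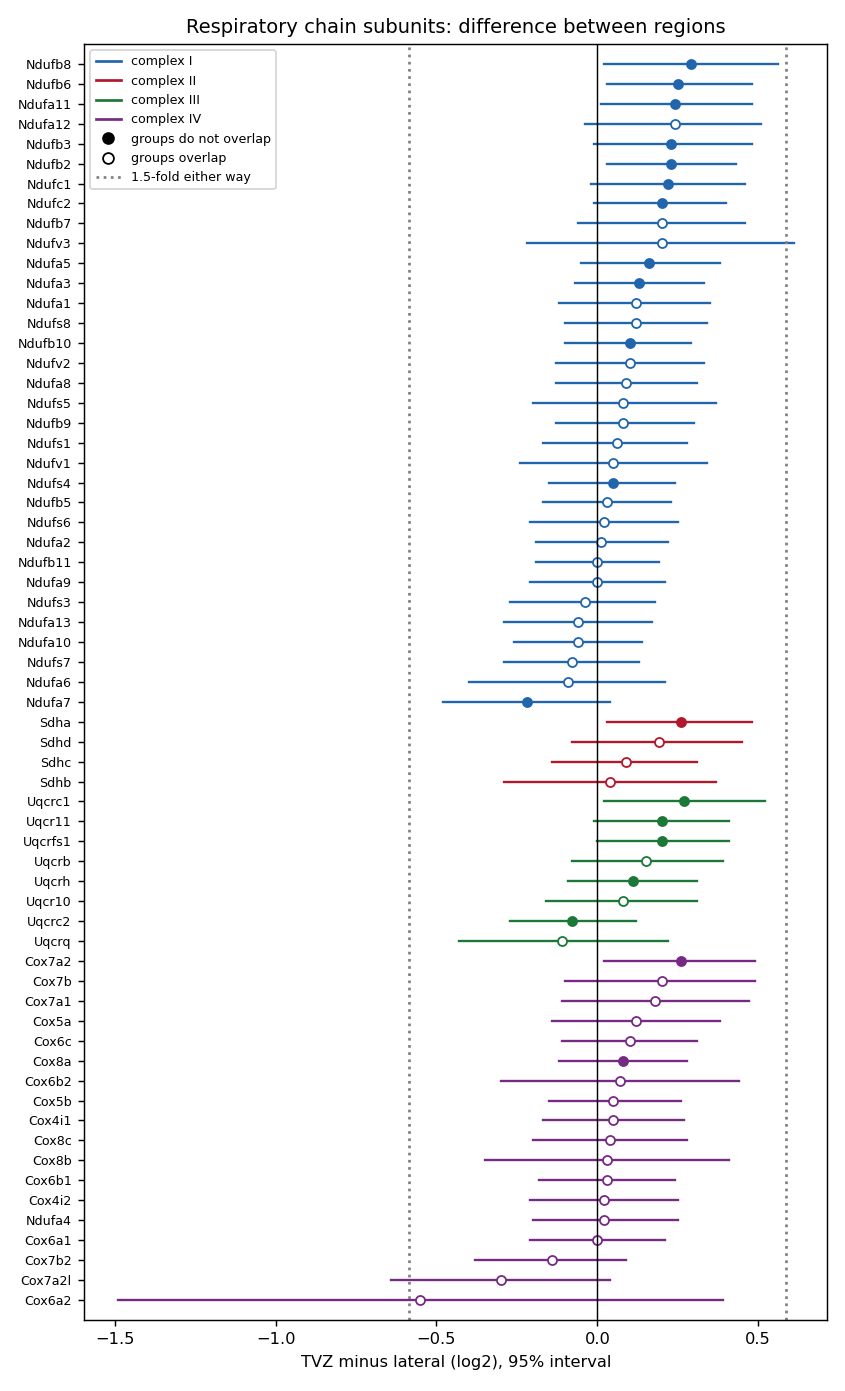
Difference between TVZ and lateral cultures for each of the 63 subunit genes (log2, horizontal axis), with 95% intervals from limma, coloured by complex and ordered by size. Filled points mark the 20 genes whose groups do not overlap, 18 of them to the right of 0, and dotted lines mark 1.5-fold either way, which 3 intervals cross.

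Promoters of respiratory chain genes are known to be bound by NRF1, by ETS factors of the GABP type, by YY1 and, in some cases, by CREB. RefSeq promoters of GRCm38.p6, running from 250 bases before to 50 after the start, were at hand for 51 of the 63 genes (53 promoters). They were searched on both strands for 4 motifs: the NRF1 core GCATGCGC, the ETS letters CCGGAAG, the YY1 letters AAGATGGCG and the CRE letters TGACGTCA. The ETS and YY1 letters can share their last and first letters, and an NRF1 core can overlap its own copy on the other strand. The NRF1 core was found in 7 of the 53 promoters (13.2%, against 2.71% of all 32851 promoters) and the ETS letters in 11 (20.8%, against 8.86%). The YY1 letters were found in 5 (9.43%, against 1.40%) and the CRE in 4 (7.55%, against 1.79%). Median GC content was 57.3% in these promoters and 52.7% in all. At least 1 motif stood in 23 of the 51 genes. Of these 23, 10 had all TVZ arrays above the lateral ones, and of the 28 without a motif 8 did, against 7.77% of all genes. The median difference over all 23 genes with a motif was 0.09, and over all 28 without it was 0.10.

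To show what was compared, the 250 bases before the start are given for pairs of genes from complexes I, II and IV. The sequences run 5′ to 3′ on the gene's own strand. The first of each pair has the largest difference among the genes of its complex whose groups do not overlap, and holds none of the 4 motifs there. The second holds 2 kinds of motif in its promoter. Capitals mark the motifs. In Ndufa11 the CRE begins 158 and the NRF1 cores 60 and 58 bases before the start. In Sdhb the NRF1 core begins 54 bases before it, with the ETS letters at or beyond the start. In Cox6a1 the NRF1 cores begin at 162 and 160 and the ETS letters at 16.
Ndufb8 (GRCm38.p6, chr19:44555443-44555692, minus strand): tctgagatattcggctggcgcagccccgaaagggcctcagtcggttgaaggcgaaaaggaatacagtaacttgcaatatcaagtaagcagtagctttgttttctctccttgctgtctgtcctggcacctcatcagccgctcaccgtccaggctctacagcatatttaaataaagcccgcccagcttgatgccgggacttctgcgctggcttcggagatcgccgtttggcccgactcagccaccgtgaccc
Ndufa11 (GRCm38.p6, chr17:56717512-56717761, plus strand): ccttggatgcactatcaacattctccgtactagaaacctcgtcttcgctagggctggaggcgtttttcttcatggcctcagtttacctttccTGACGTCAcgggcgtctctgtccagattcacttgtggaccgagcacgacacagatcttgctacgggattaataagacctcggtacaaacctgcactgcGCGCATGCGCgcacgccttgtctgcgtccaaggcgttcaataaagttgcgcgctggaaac
Sdha (GRCm38.p6, chr13:74350241-74350490, minus strand): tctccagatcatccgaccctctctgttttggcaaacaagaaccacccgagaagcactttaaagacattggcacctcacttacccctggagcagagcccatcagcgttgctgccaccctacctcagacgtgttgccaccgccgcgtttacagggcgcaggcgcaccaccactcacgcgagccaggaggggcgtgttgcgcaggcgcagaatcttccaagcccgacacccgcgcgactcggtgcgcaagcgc
Sdhb (GRCm38.p6, chr4:140961021-140961270, plus strand): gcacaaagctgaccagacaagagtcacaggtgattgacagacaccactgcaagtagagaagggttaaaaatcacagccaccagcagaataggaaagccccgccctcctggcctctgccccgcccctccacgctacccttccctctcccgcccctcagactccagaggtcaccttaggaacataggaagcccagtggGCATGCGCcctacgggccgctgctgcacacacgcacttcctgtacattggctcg
Cox7a2 (GRCm38.p6, chr9:79759854-79760103, minus strand): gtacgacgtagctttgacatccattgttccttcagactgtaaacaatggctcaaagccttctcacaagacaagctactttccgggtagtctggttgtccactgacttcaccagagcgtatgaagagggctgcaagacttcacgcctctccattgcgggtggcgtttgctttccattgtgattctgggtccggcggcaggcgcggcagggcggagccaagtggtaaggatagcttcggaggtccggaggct
Cox6a1 (GRCm38.p6, chr5:115348959-115349208, minus strand): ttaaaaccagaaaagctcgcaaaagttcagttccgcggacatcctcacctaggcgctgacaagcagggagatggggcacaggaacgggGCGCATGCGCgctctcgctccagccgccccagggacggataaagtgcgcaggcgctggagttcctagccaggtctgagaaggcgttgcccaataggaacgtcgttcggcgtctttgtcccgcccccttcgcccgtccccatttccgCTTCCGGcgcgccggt
Read beside the levels, the differences were 0.29 for Ndufb8, 0.26 for Sdha and 0.26 for Cox7a2, without a motif, and 0.24 for Ndufa11, 0.04 for Sdhb and 0.0015 for Cox6a1, with motifs. None of the 6 passed the adjusted threshold. The first genes were picked for their large differences, so their larger values follow from the choice and say nothing about motifs. In complex III, Uqcrc1 had the largest difference without overlap (0.27), and its promoter holds an NRF1 core. A further gene with motifs of 2 kinds, Uqcr11 of complex III, differed by 0.20. A match of letters is a description and shows no binding.

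Complex I, the NADH dehydrogenase, was measured by 33 genes. Of these, 25 read higher on average in TVZ cultures, and the median over the 33 was 0.089. In 11 (33.3%) every TVZ array lay above every lateral one, against 7.77% of all genes and 10.1% without the dimmest 40%. In 1 the order was reversed, against 9.24% of all genes. The complex is built from an N module that takes electrons from NADH, a Q module that hands them to ubiquinone, and a membrane arm that pumps protons. The higher genes lay mostly among the accessory subunits of the membrane arm. There 9 of 18 genes were higher without overlap and the median difference was 0.12, while 1 of 10 was in the N module (median 0.046) and 1 of 5 in the Q module (median -0.0018). Without lateral array 2 the medians were 0.14 for the membrane arm, 0.0083 for the N module, where positive differences went from 8 to 5, and -0.0098 for the Q module. These modules share arrays and were not tested against each other.

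Ndufb8, a membrane arm subunit often used to gauge assembled complex I, had the largest difference of complex I. Its log2 values were 9.91, 10.29 and 10.01 in lateral arrays 1 to 3 and 10.42, 10.36 and 10.31 in TVZ arrays 1 to 3. All TVZ arrays lay above the lateral ones, but lateral array 2 came close to the lowest of them. The means were 10.07 ± 0.19 and 10.36 ± 0.05 (SD, n = 3), a difference of 0.29 (95% interval 0.02 to 0.56, limma adjusted p = 0.366), or 1.22-fold. Without lateral array 2 the difference was 0.40 (adjusted p = 0.0439), a fit in which 8.25% of all genes passed.

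Ndufb6, another accessory subunit of the membrane arm, read 10.74, 10.98 and 10.93 in the lateral arrays and 11.15, 11.16 and 11.11 in the TVZ arrays. The groups were apart by more than the TVZ arrays differed among themselves, with lateral array 1 lowest. The difference was 0.25 (0.03 to 0.48, adjusted p = 0.356 in limma). Ndufa11, also of the membrane arm, read 9.61, 9.54 and 9.57 against 9.86, 9.93 and 9.65. Here the lateral arrays were close together and TVZ array 3 lay nearest to them, and the difference was 0.24 (0.01 to 0.48, adjusted p = 0.383 in limma). A second probe set of Ndufa11 differed by 0.27, also without overlap. Ndufb2 (0.23), Ndufb3 (0.23), Ndufc1 (0.22), Ndufc2 (0.20), Ndufa3 (0.13) and Ndufb10 (0.10) completed the membrane arm genes without overlap. Ndufc2 had the highest mean signal of complex I. It read 11.95, 12.09 and 12.08 in lateral and 12.21, 12.25 and 12.25 in TVZ arrays, without overlap, with means of 12.04 ± 0.08 in lateral and 12.24 ± 0.02 in TVZ cultures (SD, n = 3). The second probe set of Ndufc1 differed by 0.33, again without overlap.

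The other membrane arm genes had overlapping groups. Ndufa1 (0.12), Ndufb7 (0.20), Ndufa8 (0.09), Ndufb9 (0.08), Ndufs5 (0.08) and Ndufb5 (0.03) were positive, Ndufs5 turning to -0.03 and Ndufb5 to -0.02 at the lowest of 13 alternative fits. Ndufb11 was the steadiest gene of the set. It read 11.37, 11.36 and 11.40 in the lateral and 11.38, 11.37 and 11.38 in the TVZ arrays, a range of 0.04 over all 6. Ndufa10 and Ndufa13 each differed by -0.06, with intervals of -0.26 to 0.14 and -0.29 to 0.17.

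In the catalytic core of complex I no gene separated the groups. Its 6 measured core genes had a median difference of 0.052, 4 of them positive, and the groups overlapped in all 6. Without lateral array 2 the median was 0.0036, with 3 positive. Ndufv1, the flavoprotein that takes electrons from NADH, read 7.85, 7.55 and 7.97 in lateral and 7.77, 7.93 and 7.81 in TVZ arrays. Lateral array 2 was the lowest of the 6, and the difference of 0.05 (95% interval -0.24 to 0.34) turned to -0.07 without it. Ndufs1, which carries iron-sulfur clusters, read 9.24, 9.21 and 9.03 against 9.17, 9.30 and 9.18, with the groups interleaved and a difference of 0.06 (-0.17 to 0.28), which turned to -0.01 at the lowest alternative. Ndufs8 differed by 0.12, Ndufv2 by 0.10, Ndufs3 by -0.04 (0.01 at the highest alternative) and Ndufs7 by -0.08, each with an interval that includes 0.

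Among accessory subunits of the N and Q modules, Ndufa7 went the other way. It read 8.45, 8.29 and 8.62 in lateral and 8.29, 8.28 and 8.13 in TVZ arrays, so that lateral array 2 lay just above the highest TVZ array. Its difference was -0.22 (-0.48 to 0.04, adjusted p = 0.457 in limma). Ndufa12 differed by 0.24 with lateral array 2 among the TVZ arrays, and Ndufa5 of the Q module by 0.16 without overlap. Ndufs4, whose loss in mice causes a Leigh-like disease, read 11.35, 11.39 and 11.39 in lateral and 11.41, 11.43 and 11.42 in TVZ arrays. Its arrays were so alike that a difference of 0.05 left no overlap, and it turned to -0.01 at the lowest alternative. Ndufv3 had the widest range of complex I, 0.73, because lateral array 2 read 9.28 against 9.98 and 9.88 in the other lateral arrays and 9.81 to 10.01 in the TVZ arrays. Its difference was 0.20 over all arrays and -0.02 without lateral array 2. Ndufa2 (0.01), Ndufs6 (0.02), Ndufa9 (-0.0018) and Ndufa6 (-0.09) each changed sign in at least 1 of the 13 alternative fits.

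**Figure D2:**
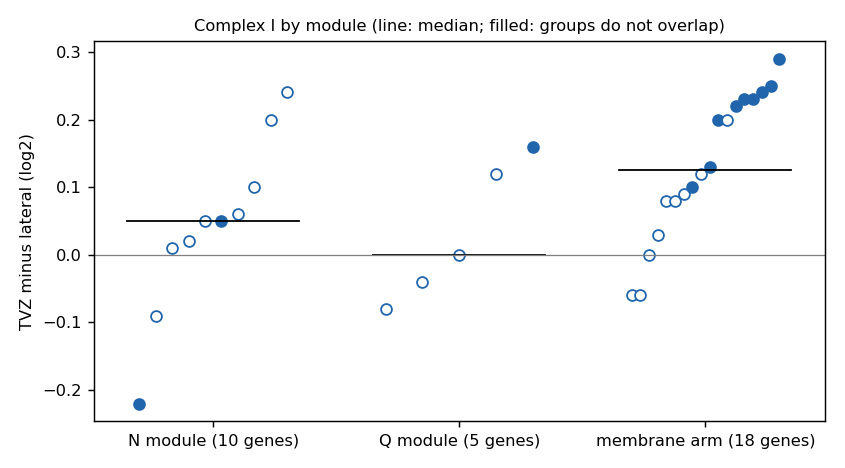
Difference between TVZ and lateral cultures (log2, vertical axis) of the 33 complex I genes by module, each point a gene, with a line at the median. Filled points, whose groups do not overlap, number 9 of 18 in the membrane arm, all above 0, and 2 of 10 in the N module and 1 of 5 in the Q module.

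Complex II, succinate dehydrogenase, also belongs to the citric acid cycle and is encoded wholly in the nucleus. All 4 genes had a positive difference, with a median of 0.14. Sdha alone separated the groups, 1 gene of 4, against 7.77% of all genes in that direction. Sdha, the flavoprotein that oxidizes succinate, read 9.36, 9.59 and 9.39 in lateral arrays and 9.71, 9.73 and 9.68 in TVZ arrays. The TVZ arrays lay close together above all lateral ones, with lateral array 2 nearest to them. The means were 9.45 ± 0.12 and 9.71 ± 0.02 (SD, n = 3), a difference of 0.26 (0.03 to 0.48, adjusted p = 0.353 in limma), which is 1.2-fold. Without lateral array 2 it was 0.33 (adjusted p = 0.0738).

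Sdhb, the iron-sulfur partner of Sdha, had overlapping groups. Its values were 9.49, 9.03 and 9.53 in the lateral and 9.32, 9.45 and 9.39 in the TVZ arrays. Lateral array 2 was the lowest of the 6 while arrays 1 and 3 were the highest, and the difference of 0.04 (-0.29 to 0.37) became -0.12 without it. The membrane anchors Sdhc and Sdhd differed by 0.09 (-0.14 to 0.31) and 0.19 (-0.08 to 0.45), with overlapping groups. Sdhc, with the highest mean of the complex, read 10.29, 10.24 and 10.4 against 10.48, 10.28 and 10.43. Sdhd read 7.05, 7.37 and 7.03 in lateral arrays against 7.30 to 7.39, so its overlap came from lateral array 2.

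Complex III, the cytochrome bc1 complex, was measured by 8 genes, of which 6 had a positive difference, 4 were higher without overlap and 1 was lower without overlap. The median difference was 0.13. Uqcrc1, a core protein of the matrix side, read 7.25, 7.57 and 7.49 in lateral and 7.64, 7.71 and 7.76 in TVZ arrays. Lateral array 1 was far the lowest, and the difference was 0.27 (0.02 to 0.52, adjusted p = 0.376 in limma), or 1.2-fold. Uqcrc2, its partner on the matrix side, read 10.05, 10.04 and 10.11 in lateral and 9.98, 10.01 and 9.98 in TVZ arrays. The TVZ arrays lay below the lateral ones by little, with a difference of -0.08 (-0.27 to 0.12, adjusted p = 0.756 in limma).

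Uqcrfs1, the Rieske iron-sulfur protein of the catalytic core, read 8.98, 9.08 and 8.99 against 9.15, 9.23 and 9.28 and differed by 0.20 (adjusted p = 0.4 in limma). Its lateral arrays were alike and all lay below the TVZ arrays. Among the small subunits, Uqcr11 differed by 0.20 and Uqcrh by 0.11 without overlap, and Uqcrb by 0.15 and Uqcr10 by 0.08 with overlap. Uqcr11 read 9.12, 8.99 and 9.09 in lateral and 9.32, 9.27 and 9.22 in TVZ arrays. Uqcrh, the hinge protein, had the highest mean of the complex and read 12.11, 12.1 and 12.01 against 12.23, 12.14 and 12.17. Uqcrb, the next highest, read 10.69, 10.88 and 10.59 against 10.87, 10.92 and 10.84, and only lateral array 2 reached the TVZ arrays. The 2 further probe sets of Uqcrb differed by 0.24 and 0.15, while the second one of Uqcr11 differed by 0.04 with overlapping groups. Uqcrq read 10.73, 10.38 and 10.93 in lateral and 10.54 to 10.61 in TVZ arrays, with all 3 TVZ arrays inside the range of the lateral ones and a difference of -0.11 (0.02 at the highest alternative).

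**Figure D3:**
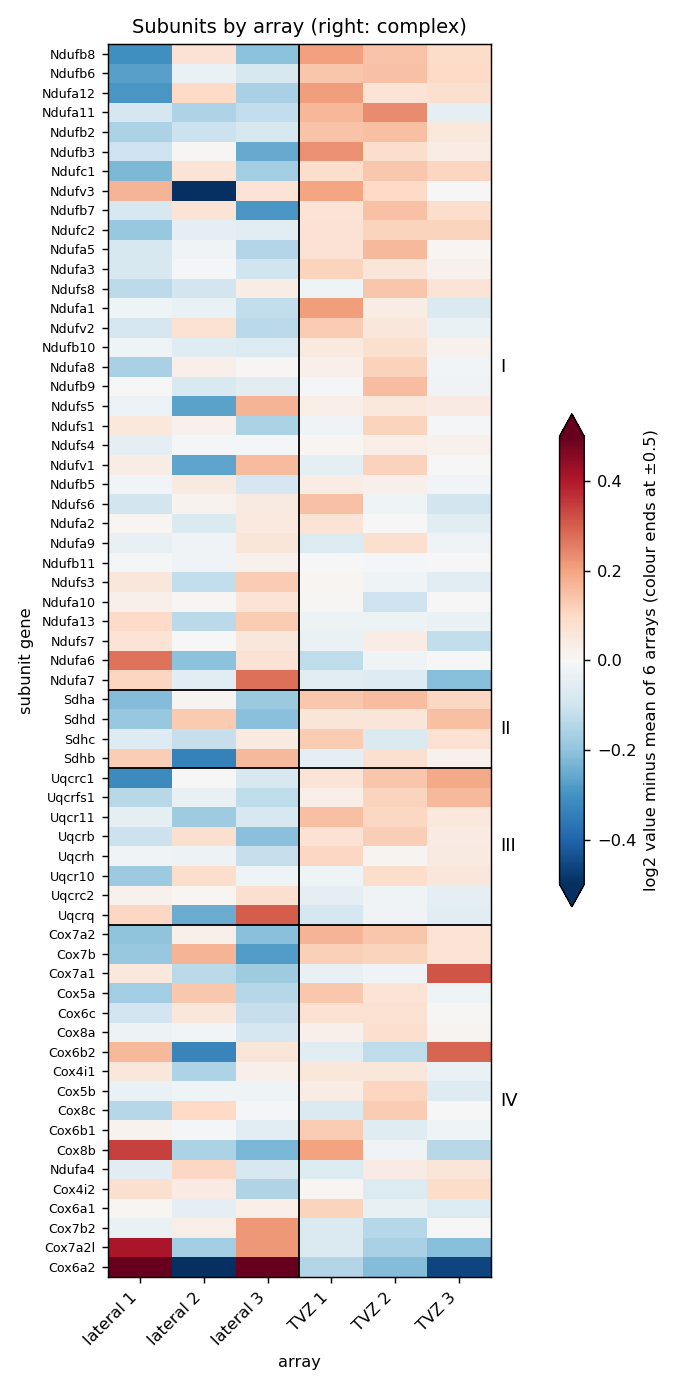
Log2 value of each of the 63 genes in each of the 6 arrays, as the deviation from that gene's mean over the arrays (colour, ending at 0.5 either way), grouped by complex and ordered by difference. Within complex I the upper rows are mostly above the mean in the TVZ arrays, while lateral array 2 departs from lateral arrays 1 and 3 in many rows, most in Cox6a2 and Ndufv3.

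Complex IV, cytochrome c oxidase, was measured by 18 genes, with Ndufa4 counted here because its protein is now known as a subunit of this complex. The positive differences numbered 15, the median was 0.044 and 2 genes were higher without overlap, which is 11.1%, close to the 7.77% of all genes and 10.1% of brighter genes. All 10 isoforms of general use had a positive difference, though 5 of them turned negative after cyclic loess and 4 after a further quantile normalization. Cox7a2 had the largest. It read 10.88, 11.11 and 10.87 in lateral arrays and 11.25, 11.22 and 11.15 in TVZ arrays. The TVZ arrays lay above all lateral ones, lateral array 2 being nearest to them. The means were 10.95 ± 0.14 and 11.21 ± 0.05 (SD, n = 3), and the difference was 0.26 (0.02 to 0.49, adjusted p = 0.366 in limma). Cox8a read 9.83, 9.84 and 9.77 against 9.88, 9.94 and 9.87 and differed by 0.08 without overlap, while Cox7b differed by 0.20 with lateral array 2 the highest of the 6 at 12.05. A second probe set of Cox7b differed by 0.39 without overlap.

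Cox4i1, which is needed early in assembly and binds ATP, read 11.49, 11.28 and 11.46 in lateral and 11.49, 11.49 and 11.40 in TVZ arrays. The groups lay on top of each other apart from lateral array 2, with a difference of 0.05 (-0.17 to 0.27) that was -0.01 without that array. Cox5a, its early assembly partner, read 10.26, 10.57 and 10.29 against 10.57, 10.50 and 10.41, with lateral array 2 among the TVZ arrays and a difference of 0.12 (-0.14 to 0.38). Cox6c, with the highest mean of the complex, read 12.49, 12.64 and 12.47 against 12.66, 12.66 and 12.59 (difference 0.10). Cox6b1, the next highest, read 12.54, 12.51 and 12.47 against 12.65, 12.46 and 12.5 (difference 0.03). Ndufa4, first assigned to complex I, read 12.02, 12.18 and 12.0 against 12.01, 12.12 and 12.14 (difference 0.02). In all 3 genes the groups overlapped. Cox5b differed by 0.05 and Cox6a1 by 0.0015. Of these 5, all but Cox6c changed sign in at least 2 of the 13 alternative fits.

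Complex IV has isoforms made chiefly in particular tissues, and these included genes near background and the gene with the widest range of the set. Cox6a2, the isoform of heart and skeletal muscle, which some neurons also express, read 7.58, 6.24 and 8.12 in lateral arrays and 6.89, 6.82 and 6.58 in TVZ arrays. Lateral arrays 1 and 3 were the highest and lateral array 2 the lowest, a range of 1.88, the widest of the 63 genes. The difference was -0.55 (-1.49 to 0.39, adjusted p = 0.629 in limma) over all arrays and -1.09 without lateral array 2 (adjusted p = 0.00671), where the lateral level was 2.13-fold the TVZ level. That call rests on lateral arrays 1 and 3. Of 5 muscle markers, Ckm, Tnnt2, Myh7, Acta1 and Myl1, none passed in either fit, Myl1 was under the background gauge in every array, and their summed linear signal was 202 to 216 in lateral and 217 to 221 in TVZ arrays. The part of muscle cells in the Cox6a2 values was not tested.

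Cox7a2l is a relative of Cox7a2 known as a factor in supercomplexes of complexes III and IV, a role not measured in these cells. It read 11.19, 10.61 and 11.0 in lateral and 10.71, 10.62 and 10.57 in TVZ arrays. Lateral arrays 1 and 3 were the highest, and lateral array 2 lay among the TVZ arrays. The difference was -0.30 (-0.64 to 0.04, adjusted p = 0.449 in limma), and -0.46 without lateral array 2 (adjusted p = 0.0365). A second probe set differed by -0.16.

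Of the other tissue isoforms, Cox7b2, known from testis, was under the background gauge in every array, reading 3.02, 3.08 and 3.27 against 2.98, 2.91 and 3.05. Cox8b, of muscle and heart, was too, reading 5.02, 4.52 and 4.45 against 4.88, 4.66 and 4.54. Cox8c, also of testis, was above the gauge in 1 of 6 arrays, at 4.92, 5.16 and 5.05 against 4.99, 5.19 and 5.06. Cox4i2, a lung isoform, was above it in 3 of 6, at 5.15, 5.11 and 4.92 against 5.08, 5.0 and 5.16. Signals this near background carry no difference between the regions that could be read. Cox6b2, known from testis, was well above the gauge and read 8.22, 7.73 and 8.12 against 8.0, 7.93 and 8.35, and Cox7a1, another muscle isoform, 6.36, 6.17 and 6.13 against 6.27, 6.29 and 6.62. In both the groups overlapped, with differences of 0.07 (-0.30 to 0.44; -0.08 without lateral array 2) and 0.18 (-0.11 to 0.47).

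**Figure D4:**
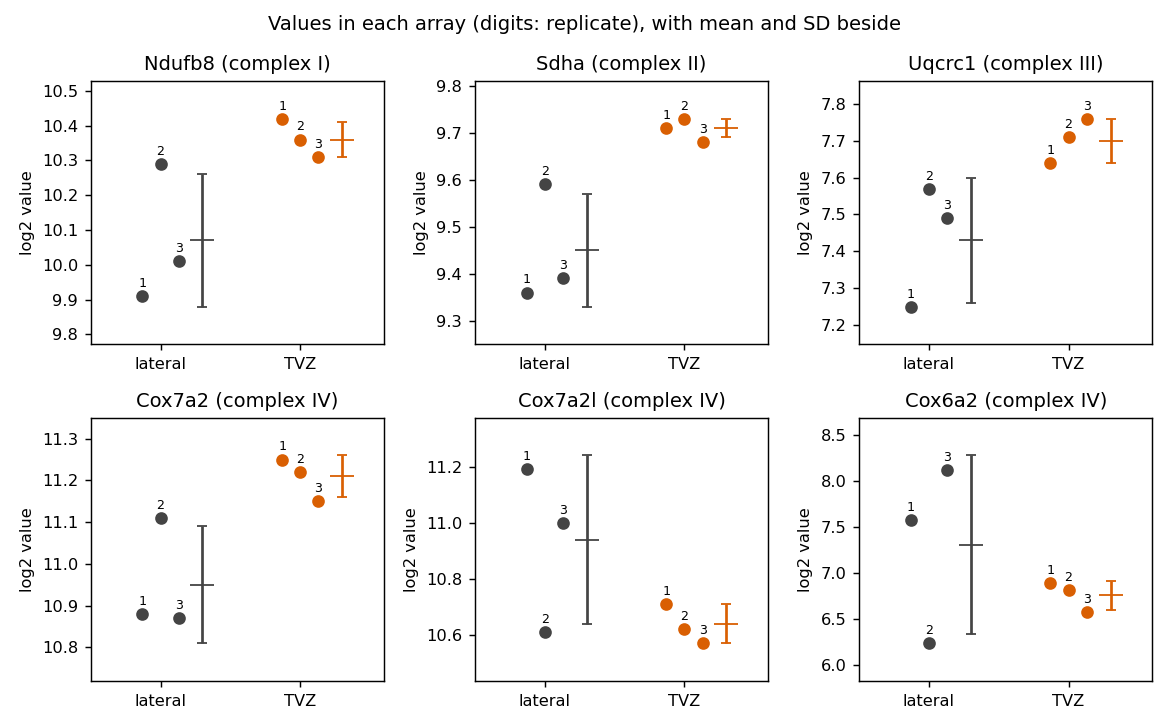
Log2 values of 6 genes in every array, with the digit giving the replicate number and bars the mean and SD of each group (n = 3). In Ndufb8, Sdha, Uqcrc1 and Cox7a2 the TVZ arrays lie above all lateral ones, and in Cox7a2l and Cox6a2 lateral arrays 1 and 3 lie above the TVZ arrays and lateral array 2 among or below them.

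Fitted without lateral array 2, 3 of the 63 genes passed, Ndufb8 as higher and Cox6a2 and Cox7a2l as lower, against 4.37% and 3.88% of all genes in those directions. Positive differences then numbered 41 and genes higher without overlap 27, against 17.8% of all genes in that fit, while 11 were lower without overlap, against 19.7%. The median difference of the set was then 0.081. Lateral array 2 was the lateral array nearest the TVZ mean in 36 of the 63 genes (57.1%), against 41.6% of all genes, and in 13 of the 18 genes higher without overlap. Its values lay outside those of lateral arrays 1 and 3 in 50 genes, above both in 27 and below both in 23.

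The lists of other mitochondrial genes are given by their counts and medians beside the 46 of 19938 genes that passed. Apart from the genes of highest mean in each list, the genes named in them were chosen after their values were seen. ATP synthase, which uses the proton gradient, had a positive difference in 17 of 18 genes, with a median of 0.11, 5 higher without overlap (27.8%, against 7.77% of all genes and 10.1% of brighter genes) and 0 past the adjusted threshold. The median was 0.047 after cyclic loess and 0.061 after a further quantile normalization. Atp5g3, a subunit of its membrane ring, differed by 0.32 (adjusted p = 0.338) and passed without lateral array 2 (0.42, adjusted p = 0.0332). The genes of highest mean, Atp5j2 and Atp5mpl, differed by 0.11 and 0.059. The mitochondrial ribosome had a positive difference in 60 of 77 genes, with a median of 0.094 and 0 passing over all arrays. Of these 77, 17 were higher without overlap (22.1%) and 1 lower. Mrpl42 and Mrps18c, of highest mean, differed by 0.20 and 0.18. Without lateral array 2, 7 of the 77 ribosome genes passed as higher, among them Mrps6 (0.68), against 4.37% of all genes. Mrpl24 alone passed as lower, against 3.88% of all genes. Assembly factors of the chain were positive in 24 of 39 genes, with a median of 0.058 (0.10 without lateral array 2) and 0 passing. Cox17, the copper chaperone of complex IV and of highest mean, differed by 0.052. Ndufaf2, an assembly factor of complex I, differed by 0.43 and passed without lateral array 2 (0.54, adjusted p = 0.02), as did Surf1 of complex IV in the other direction (-0.80, adjusted p = 0.00414).

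In the citric acid cycle 7 of 17 genes were higher without overlap (41.2%, against 7.77% of all genes and 10.1% of brighter genes) and 0 lower. Of the 17, 14 had a positive difference, with a median of 0.16, and 1 passed. This was Suclg2, the GTP-forming subunit of succinyl-CoA synthetase, at 8.15 ± 0.23 in lateral and 9.05 ± 0.09 in TVZ cultures (SD, n = 3). It read 7.94, 8.40 and 8.11 against 9.09, 8.96 and 9.12, well apart, a difference of 0.90 (0.61 to 1.2, adjusted p = 0.0484), or 1.87-fold. It passed in 5 of 13 alternative fits, with adjusted p from 0.00112 to 0.278. Fh1, fumarate hydratase, differed by 0.56 (adjusted p = 0.301) and passed without lateral array 2 (0.73, adjusted p = 0.017).

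Regulators and carriers were evenly split in sign. Of 18 regulators of mitochondrial biogenesis 8 had a positive difference, with a median of -0.015 (-0.0072 without lateral array 2) and 0 passing. Ssbp1, the single-strand DNA binding protein of mitochondria and of highest mean, differed by 0.12. Ppargc1a, the coactivator PGC-1alpha, read 8.49, 8.56 and 8.49 in lateral and 8.90, 9.06 and 8.87 in TVZ arrays, which did not overlap. Its difference was 0.43 (0.21 to 0.65, adjusted p = 0.177), and 0.45 without lateral array 2 (adjusted p = 0.0335). Of the factors whose motifs were searched, Nrf1 differed by 0.13, Gabpa by -0.04 and Yy1 by -0.023, with overlapping groups. Mterf3, known to repress mitochondrial transcription, differed by -0.47 (adjusted p = 0.287) and by -0.61 without lateral array 2 (adjusted p = 0.00901). Electron carriers and quinone synthesis genes were positive in 7 of 15, with a median of -0.013 (0.017 without lateral array 2) and 0 passing. Cycs, cytochrome c, differed by 0.35 (adjusted p = 0.334), Etfa by 0.11 and Coq7, of quinone synthesis, by 0.46 (adjusted p = 0.279), which passed without lateral array 2 (0.57, adjusted p = 0.0299). Of the genes made in the mitochondrion, 2 were measured, ND3 of complex I (0.05) and COX2 of complex IV (0.047), with overlapping groups, and each differed by 0.11 without lateral array 2. Glycolysis genes were positive in 8 of 14, with a median of 0.10 (0.0088 without lateral array 2) and 0 passing, and Pgk1 and Hk1, of highest mean, differed by 0.17 and -0.055.

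Relative to each gene's mean, the median of the 63 genes was -0.036, -0.018 and -0.061 in lateral arrays 1 to 3 and 0.047, 0.065 and 0.0081 in TVZ arrays 1 to 3, so all lateral arrays lay below all TVZ arrays. The median of 23 cell cycle genes was -1.36, 0.57 and -0.90 in the lateral arrays and 0.55 to 0.61 in the TVZ arrays. Its summed linear signal was 4400 in lateral array 1, 14500 in lateral array 2, 6030 in lateral array 3 and 14200 to 14500 in the TVZ arrays. None of the 23 passed over all arrays, and all 23 passed as higher without lateral array 2, against 4.37% of all genes. The part of these genes in the respiratory chain differences was not tested.

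The median deviation of 6 neuron markers was 0.20, 0.034 and 0.27 in lateral arrays 1 to 3 and -0.20 to -0.078 in TVZ arrays. Their summed signal was 1720 to 2200 in lateral and 1700 to 1970 in TVZ arrays, with Stmn2 below the background gauge throughout. The largest part of that sum was Map2, which had a positive difference (0.24, overlapping groups). The other 5 markers had a negative one, among them Dcx (-1.63, no overlap) and Tubb3 (-0.60, overlapping groups), and the median was -0.28. None of the neuron markers passed over all arrays. Without lateral array 2, Dcx (-1.92, limma adjusted p = 0.00523) and Tubb3 (-0.78, limma adjusted p = 0.0175) passed as lower, against 3.88% of all genes. Astrocyte markers summed to 1230 to 3870 in lateral and 2030 to 2510 in TVZ arrays, with Gfap below the gauge in all 6. Single astrocyte markers did not move together. Of the 6, 5 had a negative difference, among them Apoe (-1.35, overlapping groups) and Aldh1l1 (-0.43, no overlap), and the median was -0.26. Sparcl1 was higher without overlap (0.94), and none of the 6 passed over all arrays. Without lateral array 2, Apoe passed as lower (-2.04, limma adjusted p = 0.021) and Sparcl1 as higher (0.68, limma adjusted p = 0.02). Oligodendrocyte lineage markers (5 measured) summed to 998 to 1110 against 748 to 790, and they did not all move together. Pdgfra was lower in TVZ cultures (-1.79, limma adjusted p = 0.00707) and alone passed over all arrays. Sox10 was lower without overlap (-0.74) and passed without lateral array 2 (-0.82, limma adjusted p = 0.0116). Cspg4 (-0.092) and Mbp (-0.12) had overlapping groups, as did Olig1, which had a positive difference (0.17). Endothelial markers lay below the gauge in 5 of 5 genes and microglial ones in 4 of 6. The part of these cell types in the respiratory chain levels was not tested.

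**Figure D5:**
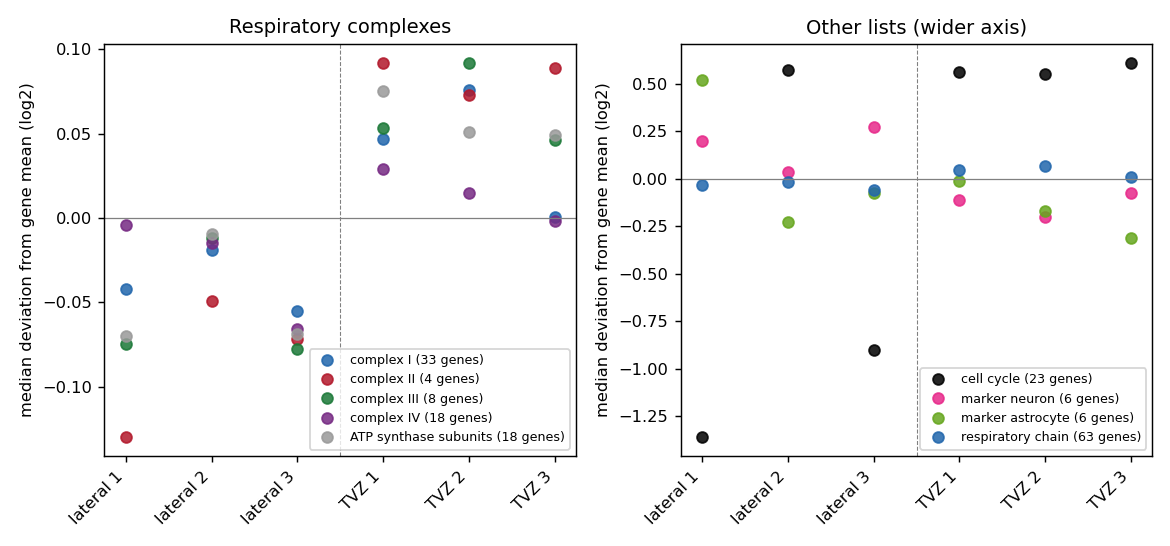
Median over a list's genes of the deviation from each gene's mean (log2, vertical axis) in each array, for the 4 complexes and ATP synthase (left) and for other lists on a wider axis (right). The 4 complexes and ATP synthase are below 0 in all lateral arrays, and the cell cycle list is at -1.36 and -0.90 in lateral arrays 1 and 3 and between 0.55 and 0.61 in the other arrays.

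Of the 63 genes, 10 had more than 1 probe set, and all 11 of their further probe sets had the sign of the one used. The further probe set of Ndufb11 differed by -0.12, while the one used was nearly at 0. Those of Cox5b, Cox6c and Ndufs3 differed by 0.05, 0.14 and -0.09, against 0.05, 0.10 and -0.04 for the ones used. Probe sets of near-identical copies could share signal, and 6 probe sets that name a respiratory chain gene together with another gene, among them those of Cox7c and Ndufb4, were left out.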

How the data were processed

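Total RNA of the 6 cultures was amplified with the NuGEN Pico system from 500 pg to 50 ng and hybridised to Affymetrix arrays, per the labels' protocols. The deposited log2 values per probe set were made by the authors with RMA, for which the submitters' processing notes name Affymetrix Expression Console 1.1. RMA compresses dim probe sets, so differences of dim genes are understated, and precision is limited by how few arrays there are. The platform annotation gave 1 symbol to 21789 of 35556 probe sets, several to 1621, and 12146 stay unnamed here. All 63 respiratory chain symbols matched the RefSeq table of GRCm38.p6. Promoters came from RefSeq for 51 genes; the rest, and the files' own genome build, were not used here.

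The difference of the third ventricle (TVZ) minus lateral was fitted over all 19938 genes with limma 3.58.1 (lmFit and eBayes) in R 4.3.3, with Benjamini-Hochberg adjustment at 0.05; the code was tested on simulated data. An exact permutation test of 3 against 3 arrays cannot go below 0.10 and was not used. Genes given by array were those passing, the 3 with the largest difference without overlap and the 2 of highest mean per complex, a fixed set of catalytic genes and tissue isoforms, and those passing without lateral array 2. In the other lists they were up to 3 passing genes or the 2 of highest mean. Ndufa7, Ndufb11, Ndufv3, Sdhd, Uqcrc2, Uqcrq and Ppargc1a were given by array outside these rules, with their values known. The genes and lists were chosen with earlier results of these data known, and support nothing independently. Alternatives were other scalings, a filter on dim genes, the mean over probe sets, array weights, another variance prior, a replicate block, Ndufa4 counted with complex I, and each array left out. The labels do not tie a replicate number to an animal, so the numbers were not taken as pairs in the main fit. Same-numbered lateral and TVZ arrays deviated together with r of 0.24, 0.11 and 0.07, against -0.15 to 0.04 for arrays of different numbers.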

Additional observations from a re-analysis of the deposited data

How the results depend on the processing

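The design has 3 arrays a group, and no respiratory chain gene passed in limma with all 6 arrays or in any alternative except without lateral array 2, where 3 did. Leaving out each array gave 4 to 1644 genes passing (25, 1644 and 20 without lateral arrays 1 to 3, and 7, 4 and 4 without TVZ arrays 1 to 3), 0 to 3 respiratory chain genes and a median difference of 0.067 to 0.094. By complex the medians then ran from 0.078 to 0.11 for complex I, 0.11 to 0.17 for complex II, 0.09 to 0.15 for complex III and 0.049 to 0.065 for complex IV. Array weights raised the genes passing to 158, with 0 respiratory chain genes. Cyclic loess lowered the median of the set to 0.055, that of complex III to 0.08 and that of complex IV to 0.029. A further quantile normalization lowered the set to 0.048, complex I to 0.055 and complex III to 0.074. Of 815 differences of single genes under the alternatives, 812 kept their side of the threshold and 3 newly passed. The sign held in every fit for 40 of the 63 genes, 32 positive and 8 negative. With the replicate number as a block, 57 genes passed in place of 46, again 0 of the 63, and the median of the set was 0.083. Each array's deviations correlated best with its own number, a hint from the data and not from the design. With Ndufa4 in complex I, the medians were 0.087 for complex I and 0.049 for complex IV. The median of electron carriers turned from -0.013 to 0.068 without lateral array 1 and to 0.032 without TVZ array 3. The causes of these shifts were not tested.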
